A study of Mus musculus with 18 samples.

Results

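Abat, Fbxo10, Abhd15, Skida1 and Dzip1 were 5 of the genes that stood highest in the libraries labelled L3MBTL3 hairpin compared with scramble hairpin, out of 24391 genes listed. They were named from an earlier reading of the same knockdown values, so their rise there is the ground of the choice and is described without a test. Their levels in the RBPJ rescue libraries were not used to choose them. All 5 passed the filter on low values in both experiments.

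The study measured RNA in E2-10HA, a hybridoma line given as mature mouse T cells, in 18 libraries. In the knockdown, cells carried pLKO.1 with a scramble sequence or with 1 hairpin against L3MBTL3, under puromycin, with 3 libraries per group. In the rescue, every group was depleted of RBPJ, the empty-vector controls included, and carried under blasticidin a pMY-Bio vector that was empty or held Flag-tagged mouse RBPJ, WT or F261A/A284V, with 4 libraries per group. RBPJ binds DNA and serves both the activation of Notch target genes and, with corepressors, their repression; L3MBTL3 is an MBT-domain protein described as one of its partners. A single hairpin was used, the means of RBPJ depletion was not given in the sources used here, and the labels do not say that replicates were separate cultures. P-values therefore measure only the spread between these libraries, which may be technical.

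The 5 genes belong to no common textbook pathway. Abat encodes the mitochondrial transaminase that breaks down GABA. Fbxo10 encodes an F-box protein, the part of an SCF ubiquitin ligase that picks the substrate, and BCL2 is a described substrate. Abhd15 encodes an alpha/beta-hydrolase-fold protein known from fat cells, where it is tied to PDE3B and the control of lipolysis. Skida1 encodes a nuclear protein with a SKI/DACH domain, and Dzip1 a zinc-finger protein at the base of the cilium that acts in Hedgehog signalling.

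RefSeq promoter windows, from 250 bases before to 50 bases after a gene's start on GRCm38.p6, were held for 3 of the 5 genes, Fbxo10, Abhd15 and Dzip1, and not for Abat and Skida1. They are shown because RBPJ is the factor the study varied, and its core letters TGGGAA, or TTCCCA on the other strand, are in capitals. The most upstream window of each gene follows, read 5′ to 3′ on the gene's strand: Fbxo10 at chr4:45084555-45084854 on the minus strand, Abhd15 at chr11:77514867-77515166 on the plus strand, and Dzip1 at chr14:118925421-118925720 on the minus strand.
Fbxo10: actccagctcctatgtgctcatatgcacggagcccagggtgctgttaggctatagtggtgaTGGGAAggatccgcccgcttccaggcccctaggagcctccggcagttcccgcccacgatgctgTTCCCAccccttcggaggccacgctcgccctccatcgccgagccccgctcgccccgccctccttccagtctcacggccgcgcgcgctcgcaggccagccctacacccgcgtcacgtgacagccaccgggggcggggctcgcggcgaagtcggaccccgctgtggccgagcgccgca
Abhd15: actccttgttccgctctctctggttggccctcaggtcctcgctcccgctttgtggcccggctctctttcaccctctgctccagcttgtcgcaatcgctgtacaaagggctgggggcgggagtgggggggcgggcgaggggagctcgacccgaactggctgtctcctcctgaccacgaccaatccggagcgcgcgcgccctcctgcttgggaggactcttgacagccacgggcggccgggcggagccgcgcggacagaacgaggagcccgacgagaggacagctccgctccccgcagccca
Dzip1: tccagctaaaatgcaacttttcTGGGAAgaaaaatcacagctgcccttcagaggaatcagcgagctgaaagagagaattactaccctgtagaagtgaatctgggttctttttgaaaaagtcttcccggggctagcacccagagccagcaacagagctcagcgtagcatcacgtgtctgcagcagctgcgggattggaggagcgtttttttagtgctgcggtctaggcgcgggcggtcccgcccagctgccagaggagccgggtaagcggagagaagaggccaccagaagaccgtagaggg
Fbxo10 held the core at 2 places, in opposite orientations, Dzip1 at 1 and Abhd15 at 0. The other windows of Dzip1 held it at 0 places. Of 32851 windows of this length, 25.6% held at least 1 core and 3.79% held 2 or more. The Fbxo10 and Abhd15 windows were rich in G and C, at 70.7% and 69% with 33 and 29 CpG, against a median window of 52.7% and 7 CpG. The Dzip1 window shown was at 54.7% with 14 CpG, and another of its 3 windows was at 69% with 24 CpG. A match of letters is a description and not evidence of binding.

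Values are the authors' normalized counts, gene counts divided by 1 size factor per library. The knockdown libraries held 4882485 to 6129134 reads. In the rescue they were 5923799 to 7921533 in replicates 1 and 2 and 3553505 to 4239479 in replicates 3 and 4, so depth moves with that divide between replicate numbers. Replicates 1 and 2 of empty vector, replicates 1 and 2 of RBPJ WT, and replicates 3 and 4 of F261A/A284V each differed by less than the noise of sampling (chi-square over degrees of freedom 0.859, 0.721 and 0.823), and each such pair was counted as 1 sample. Replicates 3 and 4 of empty vector, at 1.06, lay just above the cut of 1 and were counted apart, although they differed by little more than that noise. L3mbtl3, the targeted gene, was at 378 ± 13.8 (SD, n = 3) in the libraries labelled L3MBTL3 hairpin and at 422 ± 61.8 (SD, n = 3) in scramble. By replicate number, hairpin and scramble stood at 394 and 467, at 371 and 447, and at 370 and 352. The lowest of these 6 libraries was thus scramble replicate 3, and the transcript does not bear out the labels in every pair. Protein was not measured in these libraries, and "L3MBTL3 hairpin" below names the label alone. All 9 T cell markers were detected, while B cell, NK and stromal lists had 0 genes above the filter. The 5 myeloid markers summed to 235 to 305 in the hairpin libraries and to 333 to 374 in scramble, nearly all of it Cd68 at 223 to 359. In the knockdown Lyz2, Csf1r and Itgam stood at 0 to 7.38, below the filter, and Cd14 at 0. In the rescue 3 of the 5 passed the filter, Cd68 at 108 to 199, Lyz2 at 15.1 to 29.3 and Itgam at 8.43 to 68.8. There the 5 summed to 186 to 219 with empty vector, 149 to 177 with RBPJ WT and 189 to 244 with F261A/A284V. The part of these myeloid markers in the results was not tested. In bulk RNA, fewer expressing cells and less RNA per cell cannot be told apart.

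All 5 genes were higher in every library labelled L3MBTL3 hairpin than in every scramble library, by 1.52 to 1.86 on the log2(value + 1) scale. Of 11586 tested genes, limma called 2.21% higher and 1.11% lower, 18.1% had all hairpin above all scramble libraries and 29.4% were higher in each same-numbered pair. Since the genes were chosen on this contrast, nothing is read from their standing against those shares.

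Abat, the GABA transaminase, was at 92.6, 92.9 and 44.2 in scramble replicates 1, 2 and 3. It was at 351, 265 and 203 in hairpin replicates 1, 2 and 3. The rise within same-numbered pairs was 1.91, 1.5 and 2.17 in log2, and the lowest hairpin library stood 2.18-fold above the highest scramble library. The mean difference was 1.86 with a standard error of 0.31.

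Fbxo10, the F-box protein, was at 31.8, 30.7 and 20.9 in scramble and at 96.1, 89.3 and 90.2 in hairpin libraries. The rise within pairs was 1.57, 1.51 and 2.06. It had the tightest hairpin group of the 5, with a mean of 91.9 ± 3.70 (SD, n = 3) against 27.8 ± 6.0 in scramble, and the widest gap, its lowest hairpin library at 2.81 times the highest scramble library.

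Abhd15, the hydrolase-fold protein, was at 41.2, 33.5 and 18.4 in scramble and at 136, 103 and 63.4 in hairpin libraries. Levels within a group spread more than 2-fold, yet the rise within pairs was nearly the same, at 1.70, 1.59 and 1.73. Replicate 3 was low in both groups, so the difference within a number varied less than the levels did.

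Skida1, the SKI/DACH-domain protein, was at 30.9, 39.3 and 16.0 in scramble and at 102, 98.1 and 62.4 in hairpin libraries. The rise within pairs was 1.69, 1.30 and 1.90. The value of 16.0 rested on 13 reads, the thinnest count among the 5 genes in the knockdown.

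Dzip1, the ciliary zinc-finger protein, was the most counted of the 5, at 140, 108 and 101 in scramble and at 397, 365 and 253 in hairpin libraries. The rise within pairs was 1.49, 1.74 and 1.32. It was the only one of the 5 whose highest rise was not in pair 3.

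**Figure D1:**
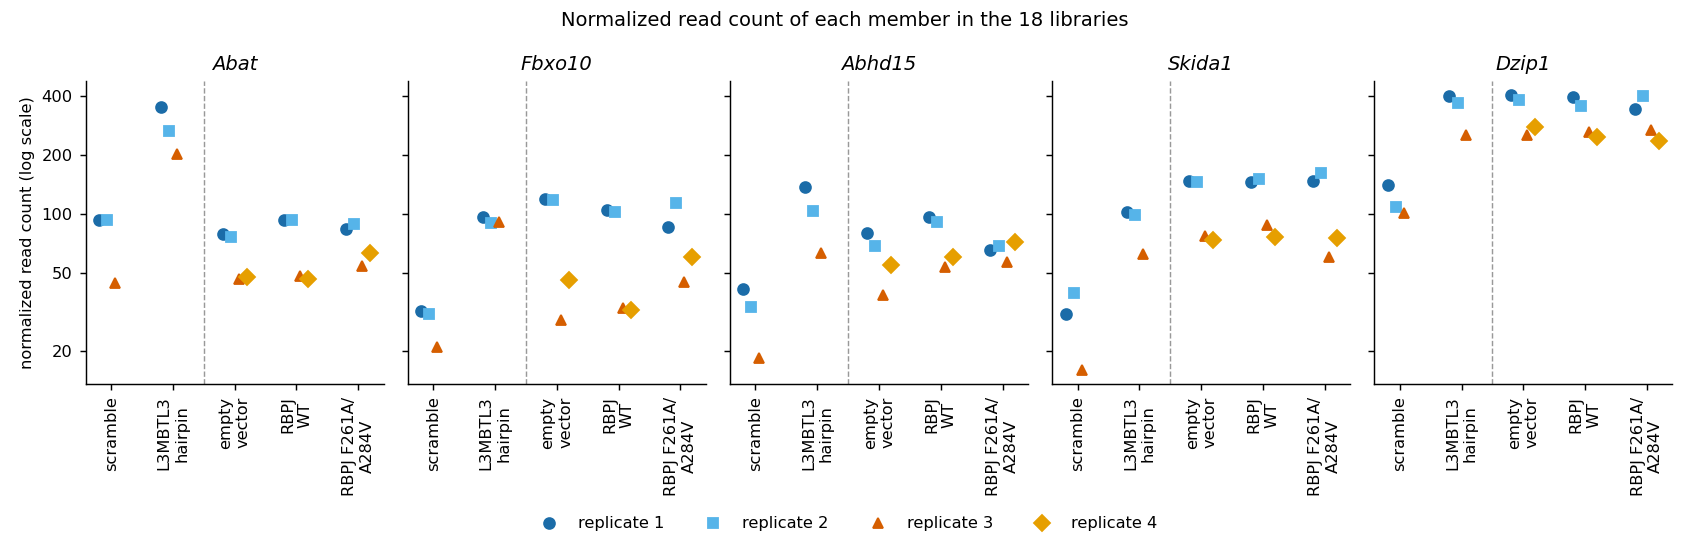
Normalized counts (log axis) of Abat, Fbxo10, Abhd15, Skida1 and Dzip1 in all 18 libraries, each point 1 library, by group of the knockdown and of the rescue. In the knockdown every hairpin point lies above every scramble point, and in the rescue the points part by replicate number more than by vector.

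**Figure D2:**
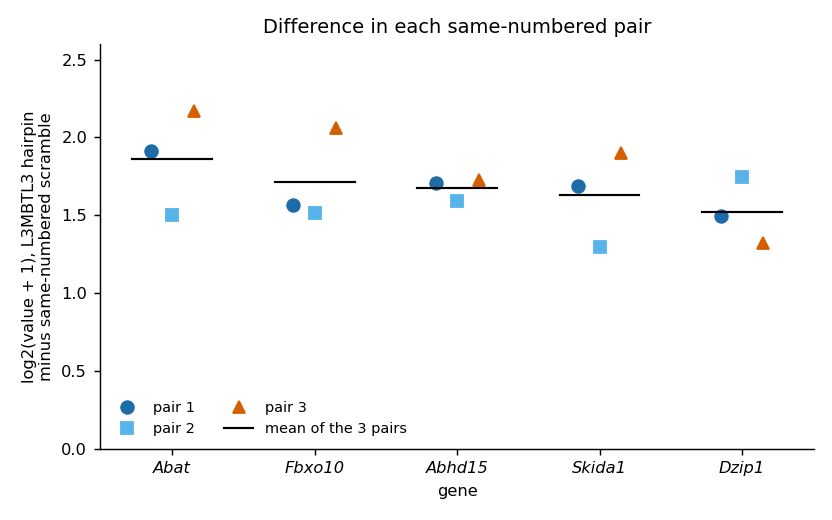
Log2 rise from scramble to L3MBTL3 hairpin (value + 1) in each same-numbered pair of libraries, 3 points per gene. All 15 differences lie between 1.30 and 2.17, and pair 3 is highest in 4 of the 5 genes.

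Replicate 3 stood low for these genes. Against the mean of replicates 1 and 2, scramble replicate 3 was at 0.48 for Abat, 0.67 for Fbxo10 and 0.49 for Abhd15. It was at 0.46 for Skida1 and 0.81 for Dzip1. Hairpin replicate 3 was also the lowest of its group in 4 of the 5, at 0.53 to 0.67, and at 0.97 for Fbxo10. For scramble replicate 3 the median over all tested genes was 1.00. Scaling by a size factor per library keeps that median near 1, so it cannot show whether other genes departed too. Scramble replicate 3 differed from replicates 1 and 2 with chi-square over degrees of freedom of 6.22 and 6.38. Scramble replicates 1 and 2 differed from each other at 1.42. Without scramble replicate 3 the differences were 1.51 for Abat, 1.53 for Fbxo10, 1.35 for Abhd15 and 1.27 for Skida1, all still above 1.

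By size of rise the 5 genes ranked 11, 17, 18, 23 and 36 of 11586, so they are not the 5 highest. Directly above Abat was Fat4 at 1.91, and directly below Dzip1 was Nek3 at 1.5, both with fewer counts. When only called genes were kept whose mean reached 50 and whose groups did not overlap, Abca1 at 2.17 and B3galt5 at 2.16 stood above Abat. Plce1 at 1.66, Ccdc80 at 1.56 and Il6ra at 1.53 fell between the members, and Galnt10 at 1.48 was next below Dzip1.

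The genes on either side of each member on the chromosome were tested in the same knockdown fit, and none of the 9 that were tested passed by limma (adjusted p between 0.135 and 0.967), edgeR or DESeq2. By limma 1 of the 9 had an unadjusted p under 0.05, beside 2949 of all 11586 genes. Since limma called 3.32% of all genes in either direction, few calls among 9 could be looked for. Polr1e, a subunit of RNA polymerase I whose annotation overlaps Fbxo10, was at 276 ± 54.7 (SD, n = 3) in scramble and 308 ± 4.65 in hairpin libraries. Trp53i13, which overlaps Abhd15, differed by 0.26 (SE 0.12, adjusted p = 0.215). Gm17762, a long non-coding RNA beside Skida1, differed by 0.56 (SE 0.28, adjusted p = 0.246) at low counts. Dnajc3 beside Dzip1 differed by -0.21 (SE 0.075, adjusted p = 0.135, or 0.0181 with the replicate number as a block), and Cldn10, on its other side, was at or near 0. Handling of strand by the authors was not given in the sources used here, so reads of overlapping genes may be shared.

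**Figure D3:**
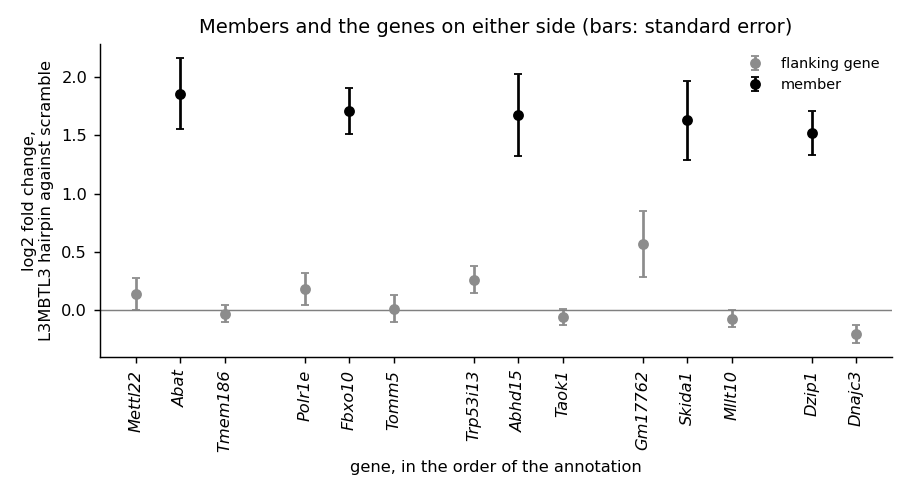
Log2 difference of L3MBTL3 hairpin against scramble hairpin (value + 1, with standard error) for each of the 5 genes and for the tested genes next to it. The 5 genes lie between 1.52 and 1.86 and their neighbours between -0.21 and 0.56.

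Genes that share a pathway with a member were taken from 5 lists of 150 genes, 121 of them tested, and how many passed in the knockdown depended on whether replicate numbers were used as pairs. In the fit without pairing 2 passed: Fbxo21, an F-box protein, rose by 0.30 (SE 0.062, limma adjusted p = 0.0479), and Fbxo5, the F-box inhibitor of the anaphase-promoting complex, fell by 0.34 (SE 0.073, adjusted p = 0.0492). None of the 16 GABA, glutamate and succinate genes, 18 ABHD and lipolysis genes, 18 SKI/DACH, SMAD and polycomb genes or 35 cilium and Hedgehog genes passed there. At an unadjusted p under 0.05 there were 33 of the 121, beside 2949 of all 11586 genes. By edgeR 4 passed, 3 of them in the F-box list, and by DESeq2 9, beside 472 and 655 of all genes. By limma, 3.32% of all genes were called in either direction. With limma, 0 of the 121 passed without any 1 of the 3 hairpin libraries or without scramble replicate 2, 1 without scramble replicate 1 and 8 without scramble replicate 3. The median difference was 0.21 for the cilium list and between -0.10 and 0.041 for the others, against -0.0067 for all genes.

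Same-numbered knockdown libraries deviated together, at r of 0.24 to 0.54 across genes, so a blocked fit, with a term for that number, is given too. One pair of other numbers, hairpin replicate 1 and scramble replicate 2, reached 0.33. The labels give replicate numbers but no pairing, so the block was chosen from these same values. In the blocked fit 25 of the 121 passed, 19 higher and 6 lower, where 22.2% of all genes passed, 13.5% higher and 8.71% lower. In the cilium list 9 of 35 rose and 0 fell. Ttc8, a subunit of the BBSome coat, rose by 1.18 (adjusted p with the block = 0.00249). Ift57, Ift74, Ift81 and Ift172, which carry cargo along cilia, rose by 0.56, 0.59, 0.43 and 0.34. Kif3a and Kif3b, motor subunits, rose by 0.24 and 0.45. In the F-box list 7 of 34 rose and 3 fell. Fbxo32, a ligase of muscle wasting, rose by 1.25 (adjusted p = 0.00284 with the block, 0.121 without). The RNA of Bcl2, whose protein is a described substrate of FBXO10, fell by 0.41 (adjusted p = 0.00315 with the block, 0.0606 without). BCL2 protein was not measured, and a link to Fbxo10 was not tested. Of the ABHD and lipolysis list, Abhd4 rose by 0.32 and Pde3b by 0.22. In the SKI/DACH, SMAD and polycomb list Phf19, Suz12 and Smad2 fell, with differences of -0.43, -0.23 and -0.26. Glul, glutamine synthetase, rose by 0.45 in the GABA list.

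In the rescue, the question was whether restoring RBPJ or its F261A/A284V form moves the same 5 genes. The vectors did raise Rbpj, from 281 ± 32.1 (SD, n = 3) with empty vector to 752 ± 101 with RBPJ WT and 778 ± 125 with F261A/A284V. Its difference from empty vector was 1.41 for RBPJ WT (limma adjusted p = 3.83e-09) and 1.51 for F261A/A284V (adjusted p = 2.07e-08). L3mbtl3 was 0.37 higher with F261A/A284V than with RBPJ WT (adjusted p = 0.00336), and differed by -0.25 between RBPJ WT and empty vector (adjusted p = 0.0654).

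None of the 5 genes passed in any of the 3 RBPJ comparisons. The background was 1.52% of 11691 genes called for RBPJ WT against empty vector, 0.0941% for F261A/A284V against empty vector and 1.96% for F261A/A284V against RBPJ WT. None of the 15 raw p-values was under 0.05, the nearest being that of Abhd15 for RBPJ WT against empty vector at 0.0843. Nor did any pass by edgeR, DESeq2 or any other of the 21 alternative settings tried in each comparison. In the fit with the divide the 15 differences lay between -0.19 and 0.32 in log2, and over the alternatives, values within 1 side of the divide included, between -0.48 and 0.72.

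Abat was at 78.7, 76.4, 46.5 and 47.4 in empty vector replicates 1 to 4. With RBPJ WT it was at 92.8, 92.5, 48.4 and 46.4, and with F261A/A284V at 83.7, 88.1, 53.9 and 63.2. Within replicates 1 and 2 both RBPJ forms lay above empty vector, by 0.25 in log2 for RBPJ WT and 0.15 for F261A/A284V. In replicates 3 and 4 F261A/A284V again lay above empty vector, by 0.31, while RBPJ WT overlapped it. F261A/A284V differed from RBPJ WT by -0.11 within replicates 1 and 2 and by 0.30 within replicates 3 and 4, without overlap on either side. Adjusted for the divide, RBPJ WT differed from empty vector by 0.093 (95% interval -0.21 to 0.39, limma adjusted p = 0.854). F261A/A284V differed from it by 0.19 (95% interval -0.12 to 0.51), which did not pass.

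Fbxo10 was at 119, 117, 28.7 and 45.9 with empty vector. With RBPJ WT it was at 104, 103, 33.1 and 32.3, and with F261A/A284V at 85.4, 114, 44.7 and 60.3. F261A/A284V lay below empty vector in replicates 1 and 2, by -0.26 in log2, and was 0.52 higher on average in replicates 3 and 4, where libraries overlapped. The change between the sides was 0.78 (SE 0.39, limma adjusted p = 1.00), and of 15 such tests by limma 0 passed, with 0 raw p-values under 0.05. RBPJ WT differed from empty vector by -0.16 (95% interval -0.57 to 0.25). F261A/A284V differed from RBPJ WT by -0.071 within replicates 1 and 2, with overlap. Within replicates 3 and 4 that difference was 0.66, without overlap.

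Abhd15 was at 79.3, 68.2, 38.3 and 55 with empty vector. With RBPJ WT it was at 96.2, 91.2, 53.5 and 60.4, and with F261A/A284V at 65.0, 68.5, 57 and 72. RBPJ WT gave the largest of the 15 differences here, 0.32 (SE 0.17, 95% interval -0.047 to 0.68, limma adjusted p = 0.546). It was 0.34 within replicates 1 and 2, without overlap, and 0.30 within replicates 3 and 4, with overlap. F261A/A284V differed from RBPJ WT by -0.48 within replicates 1 and 2, without overlap. Within replicates 3 and 4 that difference was 0.18, with overlap. F261A/A284V differed from empty vector by -0.14 within replicates 1 and 2 and by 0.48 within replicates 3 and 4 (change between the sides 0.62, SE 0.36, limma adjusted p = 1.00).

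Skida1 was at 148, 146, 76.7 and 73.4 with empty vector. With RBPJ WT it was at 145, 151, 87.9 and 75.9, and with F261A/A284V at 147, 161, 60.1 and 75. Libraries of the 3 vectors overlapped in replicates 1 and 2, and in replicates 3 and 4 both RBPJ forms overlapped empty vector. F261A/A284V differed from RBPJ WT by 0.057 within replicates 1 and 2, with overlap. Within replicates 3 and 4 the difference was -0.27, without overlap. The intervals were -0.16 to 0.33 for RBPJ WT and -0.27 to 0.24 for F261A/A284V against empty vector.

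Dzip1 was at 404, 379, 250.5 and 277 with empty vector. With RBPJ WT it was at 394, 356, 261.1 and 246, and with F261A/A284V at 341, 397, 268 and 235. With the highest counts it had the narrowest intervals, -0.21 to 0.096 for RBPJ WT and -0.24 to 0.082 for F261A/A284V against empty vector. The highest upper bound against empty vector among the 5 genes was 0.68, that of Abhd15 with RBPJ WT.

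**Figure D4:**
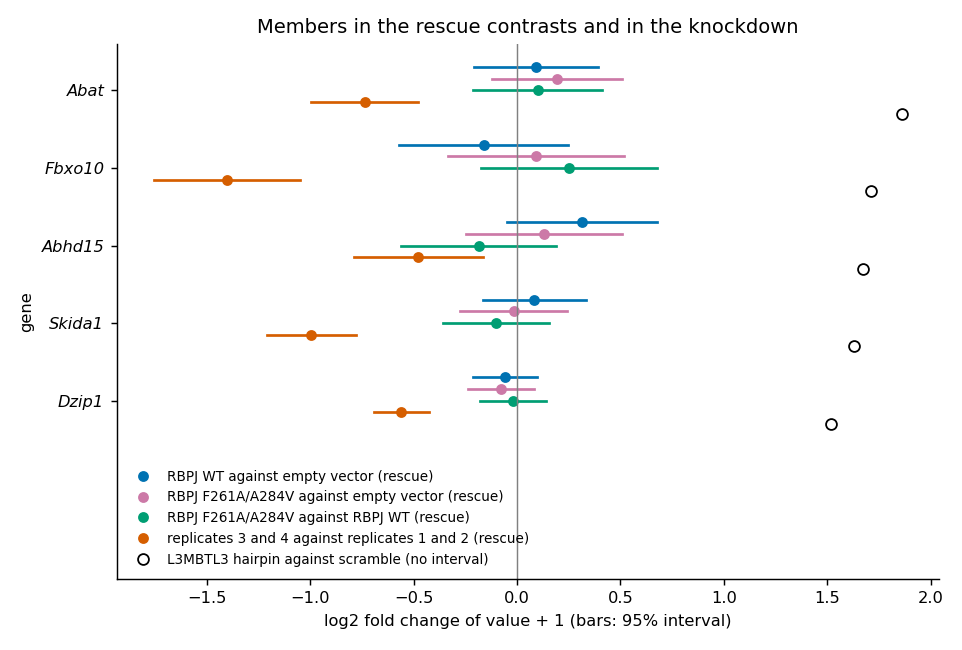
Log2 differences (value + 1) of the 5 genes with 95% intervals in the 3 RBPJ comparisons and between replicates 3 and 4 and replicates 1 and 2 of the rescue, with open circles for the knockdown differences on which the genes were chosen. The intervals of all 15 RBPJ differences include 0, and the divide between replicate numbers lies below 0 for each gene.

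The replicate divide moved all 5 genes. Replicates 3 and 4 were lower than replicates 1 and 2 in the same fit, by -1.40 for Fbxo10 (limma adjusted p = 5.26e-07), -0.99 for Skida1 (adjusted p = 7.08e-08), -0.74 for Abat (adjusted p = 3.35e-05), -0.56 for Dzip1 (adjusted p = 2.44e-07) and -0.48 for Abhd15 (adjusted p = 0.00896). Of all tested genes, 33.0% were called lower there, with a median over all genes of -0.022. A fall at least as large was seen in 0.992% of genes for Fbxo10 and in 3.31% for Skida1, but in 16.2% for Abhd15.

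Fbxo10 ran from 85.4 to 119 (median 109) in replicates 1 and 2 and from 28.7 to 60.3 (median 38.9) in replicates 3 and 4. Skida1 ran from 145 to 161 (median 147) and from 60.1 to 87.9 (median 75.4). Neither gene overlapped across the divide, and nor did Abat or Dzip1, whereas 21.3% of all genes had all of replicates 3 and 4 below all of replicates 1 and 2. Abhd15 overlapped, from 65.0 to 96.2 against 38.3 to 72, and with quantile normalization its fall was -0.14 (adjusted p = 0.396). The other 4 genes still passed under that scaling, though the fall of Abat shrank from -0.74 to -0.40 (limma adjusted p = 0.00567). Depth fell with the same divide, and its part in these falls was not tested.

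Across the divide, Dzip1's cilium list was mostly lower. Of 35 cilium and Hedgehog genes, 28 fell and 2 rose in replicates 3 and 4, with a list median of -0.41, where 33.0% of all genes were called lower and 32.3% higher. Under quantile normalization 26 fell and 3 rose. Rpgrip1l, of the ciliary transition zone, fell by 1.66 (SE 0.12, limma adjusted p = 1.17e-09). Cep290, of the same zone, differed by -1.34, Ttc8 by -1.32 and Ift74 by -1.13. Ift52 rose by 0.26 and Rab8a, a vesicle-trafficking GTPase, by 0.28. In the 3 RBPJ comparisons 0 of these 35 genes passed by limma or edgeR, with 6, 0 and 2 at an unadjusted p under 0.05 for RBPJ WT and F261A/A284V against empty vector and for the 2 forms against each other. Since 1.52%, 0.0941% and 1.96% of all genes passed there, few calls in a list of 35 could be looked for. Of all 11691 genes, 1281, 587 and 1306 had an unadjusted p under 0.05, in the same order.

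Across the 5 lists, RBPJ WT against empty vector raised Skil, a SMAD corepressor of the SKI family, by 0.80 (SE 0.14, limma adjusted p = 0.00219), and Lipe, hormone-sensitive lipase, by 0.27 (SE 0.061, adjusted p = 0.0234). With F261A/A284V both were lower than with RBPJ WT, Skil by -0.87 (adjusted p = 0.00114) and Lipe by -0.30 (adjusted p = 0.0112). Fbxo32 was also lower with F261A/A284V than with RBPJ WT, by -0.59 (adjusted p = 0.00735). For F261A/A284V against empty vector 0 of 121 passed by limma or edgeR. By limma 3 had an unadjusted p under 0.05, beside 587 of all 11691 genes. The Lipe difference from empty vector did not pass without RBPJ WT replicate 3, empty vector replicate 3 or empty vector replicate 4 (adjusted p = 0.175, 0.204 and 0.0536), and its difference between the RBPJ forms did not pass without RBPJ WT replicate 3 (adjusted p = 0.0597). Lipe against empty vector did not pass by DESeq2 either (adjusted p = 0.151). With no term for the divide, none of these calls passed in the merged libraries, with differences of 0.80 and -0.92 for Skil, 0.27 and -0.30 for Lipe and -0.38 for Fbxo32.

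The genes whose pattern lay nearest to a member's were found by Pearson's r of log2 values over the 18 libraries, centred within the knockdown and within each side of the rescue, among 11352 genes. Since hairpin and scramble libraries share 1 centre, r mostly follows the knockdown difference. Tbc1d4 was nearest to Abat (r = 0.97) and to Fbxo10 (r = 0.95), Specc1 to Abhd15 (r = 0.97), Slc12a2 to Skida1 (r = 0.97) and Tnrc6c to Dzip1 (r = 0.95). The knockdown difference was 1.42 for Tbc1d4, 1.62 for Specc1, 0.81 for Slc12a2 and 0.69 for Tnrc6c. Among the 5 members r was 0.83 to 0.96 over the 18 libraries. These include the knockdown libraries on which the members were chosen, so a high r follows from the choice. Over the 12 rescue libraries alone, which were not used to choose them, r among the members ran from -0.32 to 0.66.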

How the data were processed

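The authors deposited 1 table of normalized counts per experiment. TopHat2 2.1.1 and DESeq2 1.24.0, with build mm9, were used per the submitters' processing notes; read counter, annotation and strand setting were not given in the sources used here. These deposited signal values are counts divided by a size factor per library: 100% gave whole reads within 0.1 read. The tables were normalized separately, and tests were kept within a table.

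Genes at 10 or more in at least 3 (knockdown) or 4 (rescue) libraries were tested. Log2(value + 1), which understates changes of low genes, was tested 2-sided with the trend form of limma 3.58.1 (R 4.3.3). A call needed a p under 0.05 after Benjamini-Hochberg adjustment across the whole table. The knockdown fit held group only. The rescue fit held group and the divide between replicates 1 and 2 and replicates 3 and 4, over 9 samples after averaging near-identical libraries. On recovered reads, edgeR 4.0.16 (quasi-likelihood) called 320 genes higher and 152 lower in the knockdown, and DESeq2 1.42.0 called 456 and 199. The scripts were tested on simulated data.

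Same-numbered libraries correlated in their deviations from group means at 0.24 to 0.54 in the knockdown, where the numbers were taken to pair them, although libraries of other numbers reached 0.33. In the rescue this was 0.55 to 0.81, but 0.55 to 0.83 for any 2 libraries on 1 side of the divide. Named were the 5 members, L3mbtl3 and Rbpj, list genes that passed, genes ranked or lying next to members, and the nearest genes by r. Genes with a mean of at least 50 around the members, and the list genes named with the block, were added with their values known. The members and lists were chosen with earlier results of these data known. Reads of overlapping genes may be shared.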

Additional observations from a re-analysis of the deposited data

How the results depend on the processing

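The knockdown differences of the 5 members stayed positive in all settings. The genes were chosen on this contrast, and every hairpin library lay above every scramble library. Leaving out a library or changing the pseudocount could therefore not turn the sign, and only the sizes are described. Leaving out 1 library gave 1.51 to 2.06 for Abat, 1.35 to 1.97 for Abhd15 and 1.27 to 1.89 for Skida1, and Abhd15 was at 1.55 with a pseudocount of 5 and 1.5 with quantile normalization. All genes called there numbered 385, against 655 by DESeq2, 909 with quantile normalization and 0 to 1029 with 1 library left out. It was 0 without hairpin replicate 1, hairpin replicate 2 or scramble replicate 2 (limma, with 1673, 1891 and 2907 genes at an unadjusted p under 0.05) and 5 without hairpin replicate 3. The related genes called, 2, became 9 by DESeq2, 4 by edgeR, 7 with quantile normalization, 0 with no filter and 0 to 8 with 1 library left out. With the replicate number as a block, 2575 genes and 25 related genes were called.

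In the rescue no setting called a member in an RBPJ comparison (lowest adjusted p 0.320), and the divide calls of Abat, Fbxo10, Skida1 and Dzip1 held in all 19 alternatives. Without the divide term, with merged libraries, F261A/A284V turned positive for Dzip1 (0.17 against RBPJ WT, 0.11 against empty vector) and Skida1 (0.23 and 0.31), since its merged samples lie more on the side of replicates 1 and 2. Against empty vector, edgeR gave -0.053 for Fbxo10 and 0.028 for Skida1 and DESeq2 0.014 for Skida1. Leaving out 1 library gave -0.069 to 0.031 for Dzip1 against RBPJ WT, and against empty vector -0.016 to 0.22 for Abhd15, -0.10 to 0.26 for Fbxo10 and -0.091 to 0.050 for Skida1. The divide term of Abhd15 was -0.14 with quantile normalization. For the other shifts the cause was not tested.

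All genes called for F261A/A284V against RBPJ WT (229) became 598 with all 12 libraries, 37 with group only, 12 merged without the divide, 121 with no filter and 169 to 245 with 1 library left out. For F261A/A284V against empty vector (11) they became 81, 2, 1, 5 and 3 to 26, with 25 by edgeR. For RBPJ WT against empty vector (178) they became 283, 29, 13, 94 and 111 to 186. Related genes went from 3 to 1 with group only, 0 without the divide and 2 to 3 with 1 library left out for F261A/A284V against RBPJ WT. For RBPJ WT against empty vector they went from 2 to 1 by DESeq2, 0 with group only, no divide or no filter, and 1 to 3. With the replicate block over 12 libraries, 554 and 76 genes were called for F261A/A284V against RBPJ WT and empty vector; pairing by number changed no member's call.

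Depth limits the low values: the smallest member count was 13 reads, and counting error alone is then large.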

Other observations

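Of 16 tested genes of GABA, glutamate and succinate metabolism, the list to which Abat belongs by function, 8 rose and 1 fell in replicates 3 and 4 of the rescue, while Abat fell; 32.3% of all genes were called higher there. With quantile normalization 7 rose and 3 fell. Suclg1, a subunit of succinyl-CoA ligase, rose by 0.54 (limma adjusted p = 2.82e-07), and the transaminases Got1 and Got2 rose by 0.44 and 0.37. Aldh6a1, of valine breakdown, fell by 0.44 (adjusted p = 2.60e-06).

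Levels in the 2 experiments were set side by side as CPM of recovered reads. Skida1 was at 2.66 to 6.87 in scramble and 10.8 to 17.9 in L3MBTL3 hairpin libraries, at 27.9 to 32.1 in rescue replicates 1 and 2 and at 10.98 to 16.3 in rescue replicates 3 and 4. Dzip1 was at 16.8 to 24.5, 43.7 to 69.6, 64.7 to 80.8 and 43.1 to 49.96 in the same order. Fbxo10 was at 3.48 to 5.55, 15.6 to 16.9, 16.2 to 23.7 and 5.32 to 11.04. Abhd15 was at 3.07 to 7.18, 10.9 to 23.9, 12.3 to 18.9 and 7.09 to 13.2. Abat was at 7.37 to 16.3, 34.9 to 61.5, 15.1 to 18.4 and 8.42 to 11.6. Only Abat was lower in all rescue libraries than in all hairpin libraries, and replicates 3 and 4 of the rescue overlapped the hairpin libraries for Skida1, Dzip1 and Abhd15. The experiments differ in vector, selection, RBPJ depletion and depth, which cannot be told apart here. The authors' separate normalization does not enter these CPM.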
